A study of Homo sapiens with 8 samples.

Results

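H3K9me3 in untreated PC9 cells was set against H3K9me3 in drug-tolerant persisters given trichostatin A (TSA), to describe how far the genomic distribution of the mark in the treated persisters resembled that of the cells they came from. PC9 is an established human lung adenocarcinoma line with an activating EGFR mutation. The comparison takes 2 of the 8 samples of the series: a parental library from untreated cells, and a library from cells that had survived 8 days in 1 uM erlotinib, which inhibits the EGFR kinase, and then received 50 nM TSA for 5 hours (DTP + TSA). A library from cells kept in the same erlotinib regime without TSA (DTP) serves as the point from which nearness is measured. The treated groups both carry erlotinib, so parental and DTP + TSA differ by drug selection and by TSA together, and these cannot be told apart in their direct comparison. The other 5 samples were not analysed here.

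The libraries were compared over 28810 tiles of 100 kb that divide the 22 autosomes of hg19. All tiles were used, and the members were chosen by position alone. The coverage of a tile is the percentage of its length inside the H3K9me3 intervals that the authors called and deposited. Each tile was given a percentile rank within its own library, so that 99 means more coverage than nearly all other tiles of that list. There was 1 library a side and no replicate of any state, so the differences could not be checked against replicates and are given without p-values. Exact (Clopper-Pearson) 95% binomial intervals stand after some shares in parentheses. They cover counting error only, and neighbouring tiles are not independent.

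H3K9me3 is the histone mark of constitutive heterochromatin. It is written by SETDB1, which KRAB zinc finger proteins recruit through TRIM28, and by the SUV39H enzymes at pericentromeric repeats, and it is bound by HP1 proteins, which help to hold chromatin in a silent state. In human cells it is dense over the zinc finger gene clusters of chromosome 19, and it is found at retrotransposons, centromeres and telomeres. TSA inhibits the zinc-dependent histone deacetylases, and by raising histone acetylation it can oppose such silencing.

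The 3 lists differed in size. On the autosomes 23043 intervals covered 122 Mb in parental cells, 45381 covered 158 Mb in DTP and 50885 covered 174 Mb after TSA. The parental list left 15863 tiles (55.1%) without any interval, against 8750 (30.4%) for DTP and 8369 (29.0%) for DTP + TSA. The read depth is unknown from the lists, and its part in these differences was not tested. Ranks remove the difference in total but not the ties: a tile without coverage has rank 27.5 in the parental list, 15.2 in DTP and 14.5 in DTP + TSA. For this reason the nearer and farther counts over tiles below take the 23072 tiles that were covered in at least 1 of the 3 lists. Band means of nearness and the tile counts inside a band take all tiles of the band. There a tile uncovered in all 3 lists counts as farther, by 0.66 points.

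Tile ranks in DTP + TSA resembled those of parental cells no more than the ranks in DTP did. Over all tiles Spearman's rank correlation between parental and DTP + TSA was 0.57, and between parental and DTP it was 0.59. The persister lists resembled each other most, with a rank correlation of 0.80. Over the 11298 tiles covered in all 3 lists the same values were 0.44, 0.47 and 0.77. These are descriptions across tiles, which share mappability and copy number between libraries. The mean rank distance to parental over the 23072 covered tiles was 21.6 percentile points in DTP + TSA and 20.97 in DTP. In coverage, the mean distance to parental was 5.73 points in DTP + TSA and 4.87 points in DTP.

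The most heavily marked tiles separated the persister lists more than the bulk of tiles did. Of the 2899 tiles in the top 10% of the parental list, 1300 or 44.8% (43.0 to 46.7) were also in the top 10% of DTP + TSA, and 1455 or 50.2% (48.4 to 52.0) were in that of DTP. Of the 289 tiles in the parental top 1%, 121 or 41.9% (36.1 to 47.8) were in the DTP + TSA top 1%, and 181 or 62.6% (56.8 to 68.2) were in the DTP top 1%. DTP and DTP + TSA shared 180 of their 289. A single tile was in the top 1% of parental and DTP + TSA and not of DTP, while 61 were in that of parental and DTP and not of DTP + TSA. Those 61 tiles had a median coverage of 66.8% in the parental list, 51.2% in DTP and 49.8% in DTP + TSA, so the persister lists hardly differed there. The lowest coverage within the top 1% was 48.4% in the parental list, 41.8% in DTP and 58.8% in DTP + TSA. A tile thus needed more coverage to enter the top 1% of DTP + TSA.

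The 121 tiles shared by parental and DTP + TSA lay mostly on chromosome 19, the chromosome of the KRAB zinc finger clusters, which held 75 of them. Their median coverage was 95.6% in the parental list, 78.8% in DTP and 78.2% in DTP + TSA. The 168 tiles in the parental top 1% alone of this pair had a median of 63.1% in the parental list, 26.8% in DTP and 25.9% in DTP + TSA. Of these, 39 lay on chromosome 19, 43 on chromosome 7 and 6 within 5 Mb of a chromosome end. The band 19p12, a cluster of zinc finger genes, gave 24 of them, 7p11.2 gave 13, 7q11.21 gave 12, 3q28 gave 9 and 8q24.21 gave 7.

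The 168 tiles in the DTP + TSA top 1% and not in the parental one were placed otherwise. 154 of them lay within 5 Mb of a chromosome end, 5 on chromosome 19 and 23 on chromosome 7. Their median coverage was 14.7% in the parental list, 34.6% in DTP and 72.2% in DTP + TSA. The bands with most of them were 8q24.3 with 15 tiles, 7q36.3 with 14, and 2q37.3, 5p15.33 and 9q34.3 with 11 each, and these are the last bands of their chromosome arms. Over the whole top 1%, tiles within 5 Mb of an end numbered 32 in the parental list, 84 in DTP and 180 in DTP + TSA. Tiles in 19p12 went the other way in number, at 42, 35 and 18. Mean coverage of that band was 90.2% in the parental list, 55.6% in DTP and 54.9% in DTP + TSA. From DTP to DTP + TSA its count therefore fell at nearly level coverage, while the lowest coverage within the top 1% was 41.8% and 58.8%.

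**Figure D1:**
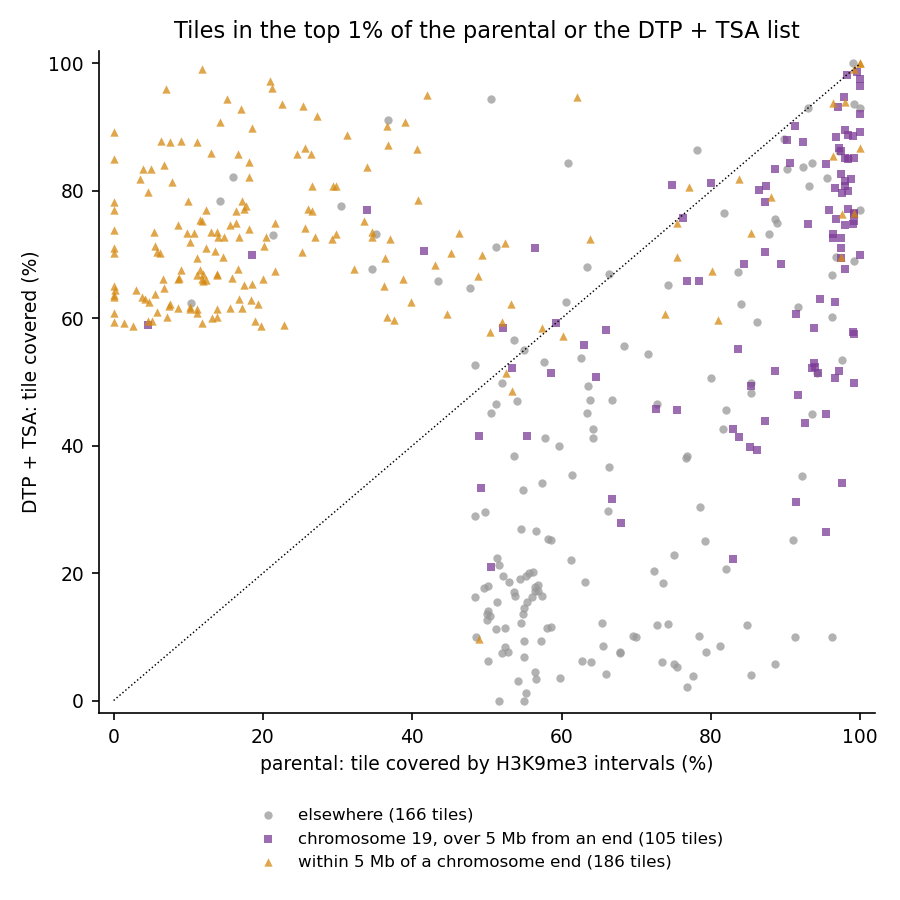
Coverage of tiles (percent of 100 kb) in parental cells (x axis) and DTP + TSA (y axis) for the tiles in the top 1% of either list, with 1 point a tile and a dotted line of equal coverage. Most tiles within 5 Mb of an end sit at the upper left, with low parental and high DTP + TSA coverage, and chromosome 19 fills the upper right corner.

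Counted tile by tile, DTP + TSA was nearer to parental than DTP was at 11130 of the 23072 covered tiles, or 48.2% (47.6 to 48.9). It was farther at 11941, or 51.8% (51.1 to 52.4), and level at 1. Of the farther tiles, 536 had no coverage in either persister list and differ only by the rank given to uncovered tiles, a gap of 0.66 points. Without them the counts were 11130 nearer and 11405 farther. Larger changes pointed the same way: rank distance shrank by at least 10 points at 17.0% of covered tiles and grew by at least 10 points at 18.9%. With distance measured in coverage, 10615 tiles were nearer, 11031 farther and 1426 level. Tied ranks also affect the 10125 covered tiles without parental coverage, as an uncovered tile ranks 27.5 in parental and 15.2 in DTP. A tile uncovered in both can therefore count as nearer by rank when a little coverage appears in DTP + TSA. Of these 10125 tiles, 5105 were nearer and 5020 farther by rank, and 4953 were nearer and 4802 farther by coverage. With each list limited to its 23842 intervals of highest mean signal, the size of the smallest list, 50.9% of the tiles that differed were nearer. This setting keeps the whole parental list, and it does not make covered length equal. Mean tile coverage was 4.25% in the parental list, 2.99% in DTP and 2.90% in DTP + TSA. There DTP left 15041 tiles uncovered and DTP + TSA 15212, so the tied ranks put 2373 tiles without coverage in either persister list on the nearer side. Without these tiles 7303 were nearer and 9343 farther, and among all covered tiles of this setting the distance shrank by at least 10 points at 18.8% and grew by as much at 24.3%.

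DTP enters both distances, so a tile that was high or low in DTP by chance looks as if it had come back. The same count was therefore made with DTP and DTP + TSA exchanged. In 2239 tiles DTP ranked at least 40 points above parental, with mean coverage of 0.0015% in the parental list, 9.46% in DTP and 8.51% in DTP + TSA. DTP + TSA lay at least midway back to parental at 387 of them, or 17.3%. In the exchanged count, 2301 tiles ranked at least 40 points above parental in DTP + TSA, and DTP lay at or under the midpoint at 576, or 25.03%. Of the 1586 tiles at least 40 points below parental in DTP, 412 or 25.98% were at least midway back in DTP + TSA, and in the exchanged count the values were 415 of 1686, or 24.6%. At a limit of 20 points the shares were 24.8% against 28.0% above parental and 24.3% against 26.8% below it. Shares that were nearer by any amount did not all point the same way. Of the tiles above parental they were 68.1% (66.9 to 69.3) against 63.0% (61.8 to 64.3) in the exchanged count at 20 points, and 71.7% against 69.1% at 40 points. Of the tiles below parental they were 54.95% against 74.8% at 20 points and 54.0% against 88.4% at 40 points, and tiles uncovered in both persister lists count toward DTP there through the tied ranks.

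Counts of tiles by presence of the mark went both ways, with small differences. 573 tiles were covered in parental cells and DTP + TSA and not in DTP, with a median of 3.6% of the tile in parental cells and 2.4% in DTP + TSA. 540 were covered in parental cells and DTP and not in DTP + TSA, with medians of 3.6% and 2.2%. Among tiles without parental coverage, 6667 were covered in both persister lists, 1555 in DTP alone and 1903 in DTP + TSA alone.

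The direction depended on the position along the chromosome. Within 2 Mb of an end, mean tile coverage was 9.14% in the parental list, 14.1% in DTP and 24.9% in DTP + TSA. From 2 to 5 Mb it was 5.78%, 7.63% and 16.6%. Beyond 20 Mb it was 3.87%, 5.17% and 4.74%, so that mean coverage of the interior lay slightly closer to parental after TSA. By rank it did not, with a mean distance to parental of 21.1 points in DTP and 21.2 in DTP + TSA. Of the covered tiles within 5 Mb of an end, 643 were nearer and 1148 farther, and beyond 20 Mb 8259 were nearer and 8107 farther. With list sizes made equal by strength in this way, the coverage within 2 Mb of an end was 9.14%, 9.69% and 16.03%, and beyond 20 Mb it was 3.87%, 2.75% and 2.13%. The excess of DTP + TSA at the ends was therefore also present in this setting, while in the interior DTP + TSA had the least coverage. The parental list is whole in this setting, and mean coverage over all tiles was 4.25% in the parental list, 2.99% in DTP and 2.90% in DTP + TSA. The lower interior coverage than in parental cells thus includes a lower total.

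**Figure D2:**
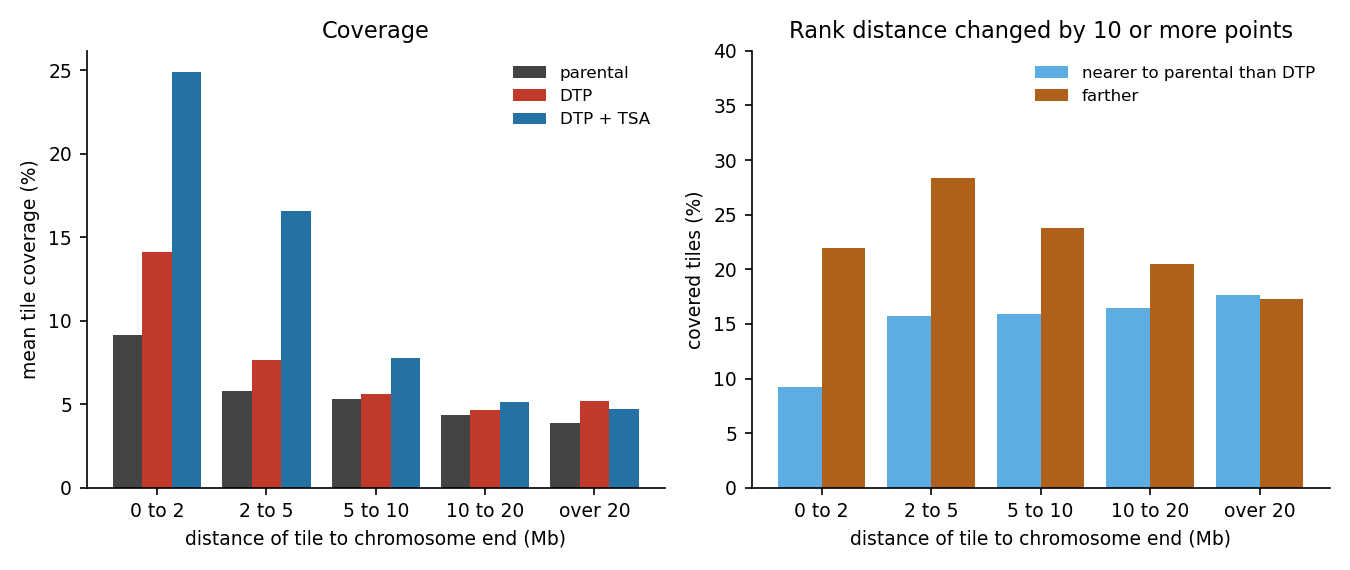
Left, mean tile coverage (percent) in the 3 lists by distance of the tile from the chromosome end in Mb. Right, the percentage of covered tiles whose rank distance to parental shrank (nearer) or grew (farther) by at least 10 percentile points from DTP to DTP + TSA. In the outermost class 9.26% were nearer and 21.9% farther, and beyond 20 Mb 17.6% and 17.3%.

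Changes of at least 2-fold and 2 kb in a tile were counted for the direct comparison. Of the 21517 tiles covered in parental cells or DTP + TSA, 9322 (43.3%) were higher in DTP + TSA and 2935 (13.6%) were lower. For DTP against parental, the shares were 42.9% higher and 12.8% lower of 21169 tiles. Within 5 Mb of an end, 63.8% were higher in DTP + TSA than in parental cells and 4.94% lower. With list sizes made equal by strength the split turned, with 3702 tiles higher and 6501 lower, so the direction of the split depended on how many intervals each list held. In that setting the parental list, kept whole, had a mean tile coverage of 4.25% and DTP + TSA one of 2.90%.

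Giemsa stain and gene density gave smaller differences. In the darkest bands (gpos100), which are AT-rich and poor in genes, mean coverage was 2.91% in the parental list, 4.46% in DTP and 3.32% in DTP + TSA. There 52.5% of covered tiles were nearer by rank and 56.2% by coverage. In the unstained bands (gneg) mean coverage was 4.85%, 6.24% and 7.99%, and 46.0% of tiles were nearer by rank and 40.7% by coverage. Beyond 5 Mb from an end the shares nearer by rank were 52.5% in gpos100 and 47.8% in gneg, so the order held without the ends. With list sizes made equal by strength, coverage of gpos100 was 2.91%, 2.16% and 1.34%, and the position between DTP and parental was lost. Over all tiles the persister lists also lay below parental in that setting, at 2.99% in DTP and 2.90% in DTP + TSA against 4.25%.

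Bands were also split by their density of protein-coding genes, with borders at 3.11 and 6.54 genes per Mb. In the low class, 51.1% of covered tiles were nearer, in the middle class 50.6% and in the high class 43.8%. Mean coverage in the low class was 2.86%, 3.96% and 3.29% in parental cells, DTP and DTP + TSA. In the high class it was 5.53%, 7.02% and 9.66%. Beyond 5 Mb from an end the high class still had the smallest share of nearer tiles, at 45.6%.

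By chromosome, the mean rank distance to parental was larger in DTP + TSA than in DTP on 19 of the 22 autosomes. The exceptions were chromosomes 4, 5 and 14. On chromosome 4 the mean distance was 21.3 points in DTP and 19.9 in DTP + TSA, and 54.6% of covered tiles were nearer. Chromosome 19 had the widest gap, with 15.3 points in DTP and 22.1 in DTP + TSA, and 29.4% of its covered tiles were nearer. Chromosome 22 followed at 36.5% nearer, chromosome 21 at 41.5%, and chromosomes 16 and 17 at 43.2% each. Without chromosome 19, 48.7% of covered tiles were nearer over the other autosomes.

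**Figure D3:**
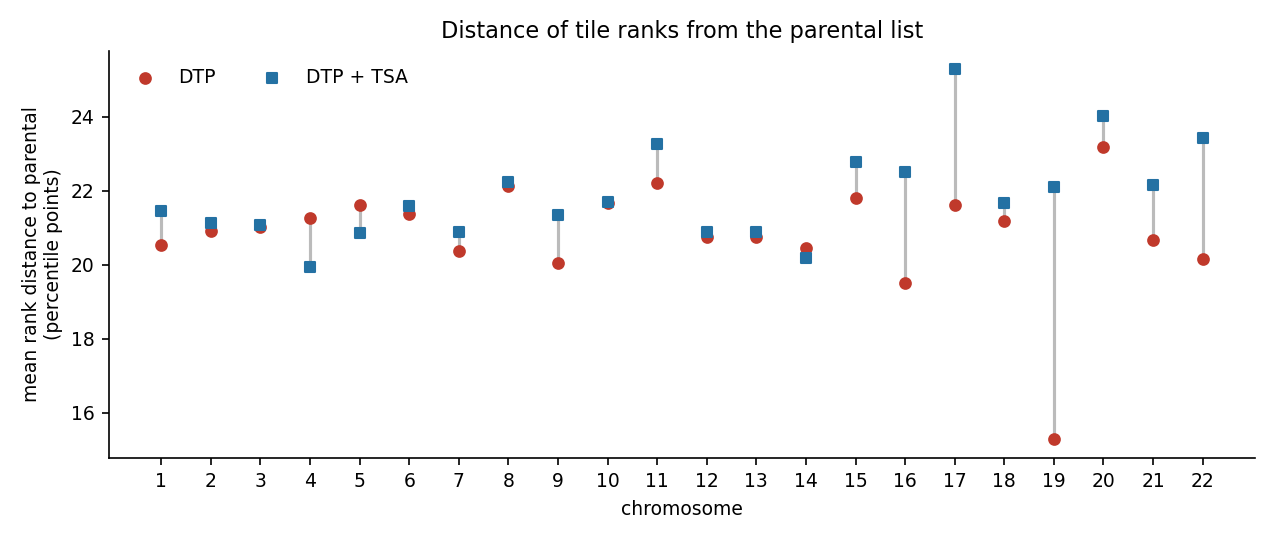
Mean absolute difference in tile rank from the parental list (percentile points, axis not from 0) for DTP (circles) and DTP + TSA (squares) on each autosome, over covered tiles. The squares lie above the circles on 19 of 22 chromosomes, with the longest line on chromosome 19.

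Tiles that were rich in the mark in parental cells stayed below their parental coverage in both persister lists. The 276 tiles over 50% covered in parental cells had means of 77.4% in the parental list, 51.8% in DTP and 50.7% in DTP + TSA. The 1028 tiles with 20% to 50% had 29.1%, 19.03% and 20.3%. Tiles chosen for high values in 1 list tend to be lower in another for that reason alone, so classes were also made from the DTP + TSA list. The 391 tiles over 50% covered in DTP + TSA had means of 43.2% in the parental list, 49.9% in DTP and 69.9% in DTP + TSA, and 233 of them lay within 5 Mb of an end. Of the 276 parental tiles 29 did. In the 208 tiles over 50% covered in DTP the means were 69.0% in the parental list, 72.8% in DTP and 71.96% in DTP + TSA, and 56 of them lay within 5 Mb of an end. A class is highest in the list that formed it, so only the values of the lists not used to form it can be compared.

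**Figure D4:**
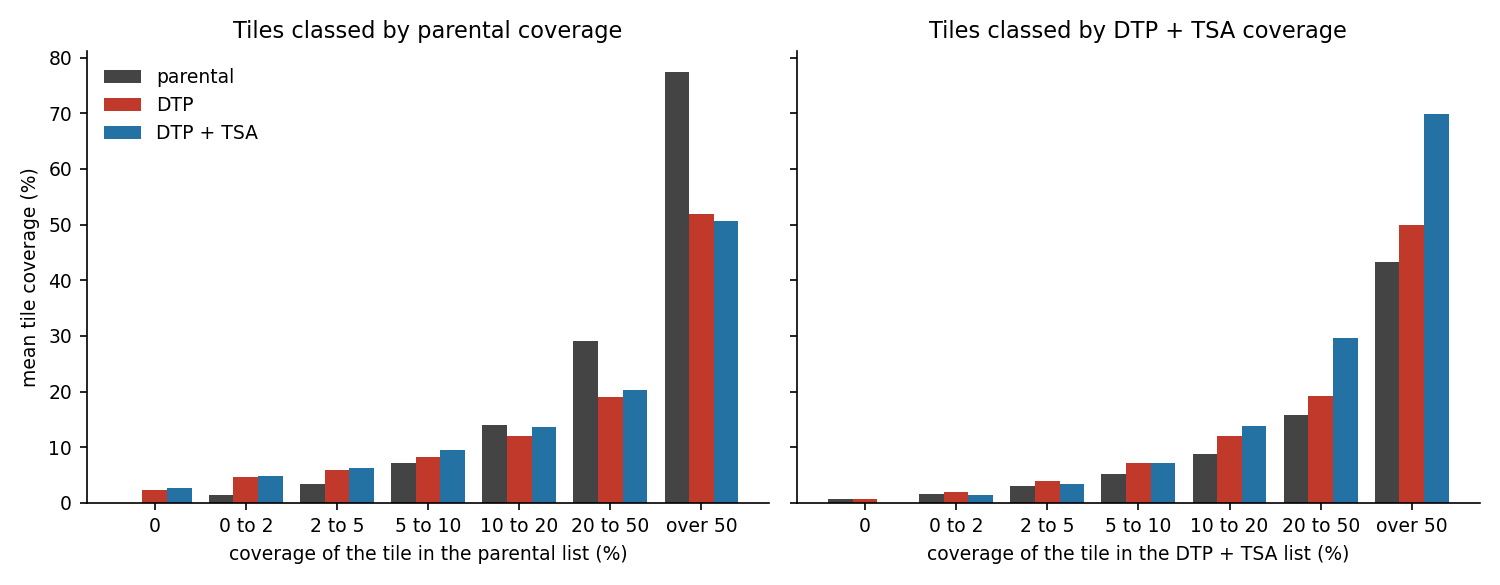
Mean tile coverage (percent) in the 3 lists, with tiles classed by their coverage in the parental list (left) or in the DTP + TSA list (right). In the highest class on the left, DTP and DTP + TSA are level at 51.8% and 50.7%, and in the highest class on the right they differ, at 49.9% and 69.9%.

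Single tiles showed what the extremes of each direction looked like. The 5 tiles with the largest gain in nearness, at most 1 a band, had no coverage in DTP and between 12% and 15.4% in parental cells. The first, chr5:2300001-2400000 in 5p15.33, had 15.4% in the parental list, 0% in DTP and 19% in DTP + TSA. The next lay at chr7:155900001-156000000 in 7q36.3, with 14.8%, 0% and 21.0%. The other tiles lay in 10q11.21, 20q11.22 and 2q37.3. In each of these the mark was found again in DTP + TSA, at 10.8% to 28.0% of the tile.

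The 5 tiles with the largest loss of nearness had no coverage in DTP + TSA. The tile chr7:46700001-46800000 in 7p12.3 went from 36.8% in the parental list to 10.6% in DTP and 0% in DTP + TSA. The tile chr2:222600001-222700000 in 2q36.1 went from 28.6% to 10.0% and 0%. The others lay in 6q24.2, 8q24.21 and 7p15.3, with 11.8%, 51.6% and 16.6% in parental cells and 9.8%, 9.8% and 9.2% in DTP.

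Of the tiles that rose most in rank from parental to DTP + TSA, all 5 had no parental coverage and lay in the last band of a chromosome arm. The tile chr16:1200001-1300000 in 16p13.3 had 0% in the parental list, 63.4% in DTP and 89.2% in DTP + TSA. The tile chr5:500001-600000 in 5p15.33 had 0%, 38.8% and 85.0%. The tile chr2:241600001-241700000 in 2q37.3 had 0%, 2.0% and 73.8%, a rise found almost wholly in the DTP + TSA list. The remaining 2 lay in 8q24.3 and 5q35.3, at 78.2% and 77.0% in DTP + TSA and 10.6% and 37.4% in DTP.

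The tiles that fell most in rank were all uncovered in DTP + TSA. The tile chr11:122000001-122100000 in 11q24.1 had 55.0% in the parental list, 3.8% in DTP and 0% in DTP + TSA. The 8q24.21 tile named above came next. The others, in 1p32.2, 17q22 and 6p24.1, had 39.0%, 38.6% and 38.6% in parental cells and 1.0%, 0% and 4.4% in DTP. In 4 of these 5 tiles coverage was therefore also under 5% of the tile in DTP.

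Bands with at least 10 tiles allowed the same comparison on a larger scale. Of 774 such bands, 328 were nearer in mean rank distance and 446 farther, and by mean coverage 384 were nearer and 361 farther. The rank means include tiles uncovered in all 3 lists, which shift them slightly toward farther. Genes were placed in bands by name from a RefSeq table on GRCh38.p14, so they describe what lies in a band and not whether a gene is marked. The 5 bands with the largest mean gain in nearness were 3p21.2, 12p13.1, 15q15.3, 4q13.3 and 4q21.3, by 7.62 to 9.60 points. In 4q13.3, a band of 58 tiles that holds ALB and AFP (serum proteins of liver), the casein genes CSN1S1, CSN2 and CSN3, the chemokine genes CXCL1 to CXCL8 and the EGFR ligand genes AREG, EREG, BTC and EPGN, coverage was 1.69% in the parental list, 5.02% in DTP and 2.77% in DTP + TSA. Of all 58 tiles of this band, 37 were nearer and 21 farther. Only 47 of the 58 were covered in at least 1 list, and the uncovered ones count as farther. In 3p21.2, which holds TLR9 (a receptor for DNA) and ALAS1 (the first enzyme of heme synthesis), coverage was 2.47%, 7.84% and 5.36%.

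In 12p13.1, the band of the cell cycle inhibitor gene CDKN1B and of ATF7IP, whose protein stabilises SETDB1, coverage was 8.75% in the parental list, 6.60% in DTP and 6.47% in DTP + TSA. Its tiles came nearer in rank while its mean coverage did not. In 15q15.3, with TP53BP1 (DNA repair) and MAP1A, coverage was 2.02%, 3.07% and 3.35%. In 4q21.3, with MAPK10 and PTPN13, it was 1.20%, 7.76% and 6.02%.

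The 5 bands with the largest loss of nearness all had more coverage in DTP + TSA than in either other list. The first was 22q13.32, a band of 10 tiles with TAFA5 as its only protein-coding gene in the table, at 8.36% in the parental list, 13.4% in DTP and 49.4% in DTP + TSA. The band 19q13.33, with the apoptosis gene BAX and the ferritin gene FTL among 132 protein-coding genes, was at 5.52%, 10.7% and 24.2%. The band 11q13.1, which holds the tumour suppressor gene MEN1, was at 1.80%, 3.76% and 10.5%. The band 19q13.32, with APOE (lipid transport), was at 3.16%, 5.93% and 10.96%, and 19p13.11, with JAK3 (cytokine signalling) and JUND (an AP-1 factor), was at 8.54%, 10.8% and 17.8%. Except for 22q13.32 these bands hold at least 30 protein-coding genes per Mb, and 22q13.32 lies within 5 Mb of a chromosome end.

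Zinc finger gene bands, the known targets of KRAB and TRIM28 dependent H3K9me3, were the most heavily covered of the gene lists in each library. The 553 C2H2 zinc finger genes on autosomes lay in 150 bands with a gene-weighted mean coverage of 23.6% in the parental list, 21.6% in DTP and 25.2% in DTP + TSA. Relative to the mean tile of the same list these are 5.55, 3.94 and 4.18 times. With list sizes made equal by strength the multiples were 5.55, 5.03 and 5.57, so the lower multiple in DTP + TSA than in parental cells was not found among the strongest intervals. In rank, 46 of the 150 bands were nearer to parental in DTP + TSA than in DTP and 104 were farther, against 344 and 467 of all 811 autosomal bands. These counts rest on the mean over all tiles of a band. Bands without coverage in any list count as farther among the 811.

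The zinc finger bands did not behave alike. In 19p12, with 33 of the genes, coverage was 90.2% in the parental list, 55.6% in DTP and 54.9% in DTP + TSA. In 19q13.12 it was 53.0%, 42.8% and 44.2%, and in 19q13.31 27.6%, 22.2% and 23.3%, so the values of 19q13.12 and 19q13.31 lay between those of DTP and parental cells. In 19q13.41 coverage was 55.7%, 51.6% and 57.2%, and in 19q13.43 44.8%, 43.7% and 47.5%, so the band means lay above parental in DTP + TSA. By rank 19q13.41 was farther, with a mean nearness of -4.05 points and 5 tiles nearer and 16 farther. In 19q13.43 the mean was -2.40 points, though 15 tiles were nearer and 13 farther. In 19q13.12 it was -3.43 points, with 7 nearer and 21 farther. In 19q13.31 it was 3.57 points, though 5 were nearer and 13 farther. Coverage of 19q13.42 was 21.2%, 21.1% and 32.6%, and that of 19p13.2 21.4%, 24.4% and 30.1%, above parental in DTP + TSA.

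Other gene lists were described in the same way, as multiples of the mean tile. These are gene-weighted means, so a single heavily covered band can carry a short list. Of all 811 autosomal bands, 344 were nearer and 467 farther. The bands of 15 housekeeping genes stood at 1.58 in the parental list, 1.53 in DTP and 2.05 in DTP + TSA, with 3 bands nearer and 12 farther. The bands of 11 histone deacetylase genes, the family that TSA acts on in part, stood at 1.82, 1.68 and 2.34, with 2 nearer and 9 farther. The bands of the 14 H3K9 methylation genes, such as SETDB1, TRIM28 and the HP1 genes CBX1, CBX3 and CBX5, stood at 1.66, 1.62 and 1.87, with 6 nearer and 8 farther. The bands of 14 imprinted genes stood at 1.76, 1.65 and 2.27. With list sizes made equal by strength these 4 lists were also higher in DTP + TSA than in parental cells, at 2.31, 2.82, 2.15 and 2.60. Housekeeping bands moved as far as the chromatin lists did. TRIM28 and the imprinted gene PEG3 lie in the zinc finger band 19q13.43, with 44.8% parental coverage, and GUSB lies in 7q11.21, with 36.6%. HDAC10 lies in 22q13.33, which went from 10.8% in the parental list to 48.7% in DTP + TSA. The median change of a band from parental to DTP + TSA was 3.20 points (housekeeping), 1.16 (deacetylases), 2.68 (H3K9 methylation) and 2.70 (imprinted), against 1.18 in all autosomal bands.

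The bands of olfactory receptor genes, which are silent outside the nose, stood at 1.01 in the parental list, 1.22 in DTP and 1.25 in DTP + TSA. Of these bands 14 were nearer and 26 farther, against 344 and 467 of all 811 autosomal bands. Defensin bands (antimicrobial peptides) were at 0.72, 0.70 and 0.87, with 0 of 6 nearer, and keratin bands at 0.89, 0.73 and 1.12, with 1 of 6 nearer. Lung epithelial genes were at 0.84, 1.01 and 1.22. The bands of HOX genes and of the EGFR pathway with its bypass receptors stood at 1.32 and 1.62 in DTP + TSA against 1.34 and 1.75 in parental cells, an order that turned with list sizes made equal by strength, at 1.59 and 1.78. Histone gene bands were at 1.13, 1.00 and 1.04, with 5 nearer and 5 farther. The single band of the clustered protocadherins was at 1.87, 1.41 and 1.32, and the single autosomal cancer-testis band at 1.65, 1.48 and 1.02. The band of the type I interferon genes stood at 0.57, 1.04 and 0.65, and among the strongest intervals at 0.57, 0.63 and 0.46, below parental in DTP + TSA.

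Nearer and farther tiles also occurred in runs. In 15q24.3, the 5 tiles of chr15:76700001-77200000 had a mean coverage of 0.68% in the parental list, 11.4% in DTP and 4.72% in DTP + TSA. In 17q24.3, chr17:70100001-70600000 went from 7.96% to 1.68% and back to 5.20%. The longest run of farther tiles took 7 tiles in 1p36.32, chr1:4200001-4900000, at 0.34%, 3.26% and 15.8%. A run of 6 tiles in 19q13.32, chr19:45500001-46100000, went from 0% to 1.70% and 10.4%. These runs were chosen by length after their values were seen.

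Domain widths were compared at intervals that parental cells and DTP + TSA shared. Of the 23043 parental autosomal intervals, 14367 or 62.3% (61.7 to 63.0) had at least 1 bp in common with a DTP + TSA interval. From the other side this held for 15666 of 50885, or 30.8% (30.4 to 31.2). The overlap took in 59.9 Mb. In 12478 pairs each interval overlapped exactly 1 of the other list. In these pairs the median parental width was 3800 bp and the median DTP + TSA width 3200 bp, and the median ratio within a pair was 0.91. The DTP + TSA interval was wider in 4939 pairs (39.6%), narrower in 6830 (54.7%) and of equal width in 709 (5.68%).

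These values were close to those of DTP. The 12849 pairs of parental and DTP intervals had a median ratio of 0.92, with 39.99% wider, 54.3% narrower and 5.72% equal. In 10469 parental intervals a single partner was found in both lists, and the median widths were 3800 bp in parental cells and 3400 bp in both persister lists. Width in DTP + TSA was nearer to parental than that in DTP at 4325 of these, farther at 4717 and level at 1427. Of those that differed, 47.8% (46.8 to 48.9) were nearer. The share was 54.6% (51.9 to 57.3) for parental intervals of up to 2 kb and 41.9% (38.7 to 45.2) for those of 8 to 16 kb. Over both kinds of pair the median change in width was 1400 bp, far more than the step of 200 bp on which interval borders lie.

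Narrowing and widening depended on which list the width class was taken from. Parental intervals of up to 2 kb had a median ratio of 1.43 in DTP + TSA, those of 2 to 4 kb 1.00, those of 4 to 8 kb 0.76, those of 8 to 16 kb 0.64 and those over 16 kb 0.37. For DTP the first 4 values were 1.44, 1.00, 0.76 and 0.64, and that over 16 kb was 0.45. The pairs over 16 kb were not the same ones, 196 for DTP + TSA and 175 for DTP. In the 112 parental intervals over 16 kb with a single partner in both lists, median widths were 9900 bp in DTP and 9300 bp in DTP + TSA. With classes taken from the DTP + TSA width the order turned, from 0.57 at up to 2 kb to 2.38 over 16 kb. Selection on 1 width gives such slopes in both directions. The widest class was where the persister lists differed: DTP intervals over 16 kb were 1.08 times the width of their parental partners in 103 pairs, and DTP + TSA intervals over 16 kb 2.38 times in 189 pairs. Their parental partners had a median width of 19000 bp in the DTP pairs and 9400 bp in the DTP + TSA pairs.

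**Figure D5:**
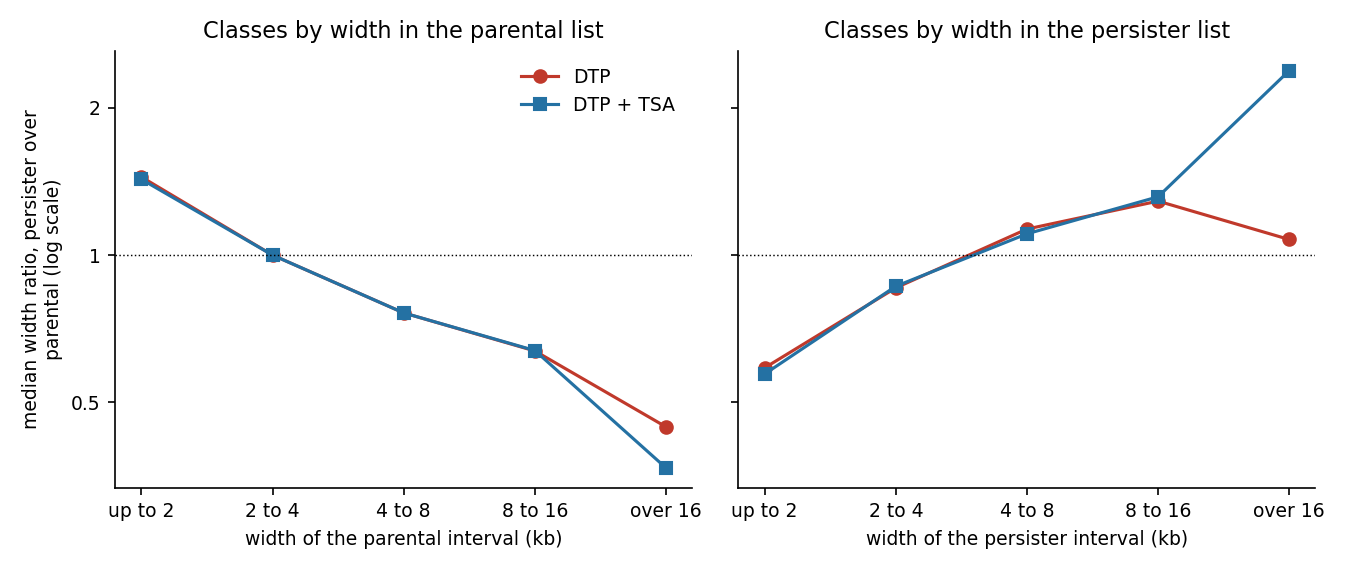
Median ratio of persister to parental interval width (log scale) in 1-to-1 pairs, by the width class in kb of the parental interval (left) or of the persister interval (right), for DTP and DTP + TSA. The lines run together except over 16 kb, where the DTP + TSA ratio is 0.37 on the left and 2.38 on the right. The pairs differ between the lists, with 196 for DTP + TSA and 175 for DTP over 16 kb on the left.

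Long parental domains were mostly present in DTP + TSA but broken into pieces, as they were in DTP. Of 666 parental intervals over 16 kb, 612 or 91.9% (89.6 to 93.8) overlapped a DTP + TSA interval, and 390 (58.6%) overlapped at least 2. DTP + TSA intervals covered 64.8% of their length. All 184 on chromosome 19 were overlapped, 142 of them by at least 2 intervals and 1 by as many as 21, and 77.7% of their length was covered. On the other autosomes 428 of 482 were overlapped and 56.5% of the length was covered. In DTP 611 of the 666 were overlapped, 386 of them (58.0% of all) by at least 2 intervals. On chromosome 19, 140 of the 184 were overlapped by at least 2 DTP intervals, and by at most 20. DTP intervals covered 66.2% of the length over all 666, 78.7% on chromosome 19 and 58.1% elsewhere. The covered part of the long domains was therefore slightly smaller with TSA than without.

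Interval borders were seldom kept exactly. Of the 24956 borders of the DTP + TSA pairs, 3204 or 12.8% were at the same position, and 30.6% lay within 200 bp. The median shift was 600 bp. In 5069 pairs (40.6%) the DTP + TSA interval lay within the parental one, in 3296 (26.4%) it enclosed it, in 3842 (30.8%) it was displaced to 1 side and in 271 (2.17%) both borders were the same. In the DTP pairs 13.3% of borders were at the same position, 39.99% of intervals lay within and 25.5% enclosed the parental one.

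Widths followed the position along the chromosome as coverage did. Within 5 Mb of an end the median parental width in 1485 pairs was 4400 bp and the DTP + TSA width 5200 bp, and the DTP + TSA interval was wider in 59.0% of pairs. In 1352 DTP pairs there, both medians were 4600 bp. Beyond 20 Mb the medians were 3600 bp and 3000 bp in 8493 DTP + TSA pairs, with 37.1% wider. On chromosome 19 the median ratio was 1.00 in 373 pairs.

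The 5 pairs with the largest widening all lay within 3 Mb of a chromosome end. The interval chr20:62015801-62021400 in 20q13.33 was 5.6 kb wide in parental cells and its partner in DTP + TSA, chr20:61976201-62066800, was 90.6 kb. In the DTP list, 2 intervals covered 83.9% of that partner. In 9q34.3 an interval of 3.8 kb at chr9:138620801-138624600 had a partner of 56.2 kb, and DTP covered 62.6% of it. In 16p13.3 intervals of 5.8 kb and 7.0 kb, chr16:1080601-1086400 and chr16:1139401-1146400, had partners of 54.8 kb and 46.6 kb, with 86.5% and 78.1% covered in DTP. The last, chr14:104630801-104633000 in 14q32.33, went from 2.2 kb to 48.4 kb, and 33.1% of the wide domain was covered in DTP. Most of the length of 4 of the 5 wide domains was therefore also covered in the DTP list.

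The 5 pairs with the largest narrowing lay in the interior of chromosomes, 4 of them on chromosome 7. The interval chr7:50886001-50935800 in 7p12.1 was 49.8 kb in parental cells and 2.8 kb in DTP + TSA, and DTP covered 5.22% of the parental domain. In 7p14.1, chr7:41062401-41102200 went from 39.8 kb to 2.4 kb and chr7:41436801-41472400 from 35.6 kb to 2.6 kb, with 20.1% and 11.8% covered in DTP. In 7q11.21, chr7:63725601-63768800 went from 43.2 kb to 7.0 kb, with 13.4% covered in DTP. In 2q31.1, chr2:173083401-173119800 went from 36.4 kb to 1.6 kb, and DTP had no coverage there. In the DTP list too, at most 20.1% of the length of these long parental domains was thus covered.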

How the data were processed

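H3K9me3 ChIP-seq interval lists of 3 PC9 libraries were used, 1 per state. Per the file headers, the authors deposited for each interval its borders, summit, summit and mean signal and number of bins. BWA, SICER and, as builds, hg19 and dm3 are listed with neither version nor role, per the submitters' processing notes. Not given in the sources used here are the input, the calling threshold, scaling of the libraries and their depth. The deposited signal was used only to pick the strongest intervals within a list and to weight 1 alternative.

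Starts were counted from 0 and ends as the last base, on a grid of 200 bp. Positions are printed 1-based on hg19. Coverage was computed in tiles of 100 kb on 22 autosomes, and ranked within each library with ties at their mean rank. Nearness is the rank distance of DTP to parental minus that of DTP + TSA. The planned count over all 28810 tiles was restricted to covered tiles, because 5738 tiles uncovered in all 3 lists differ only by their tied rank. Band means of nearness and tile counts inside bands were not restricted in this way. Named tiles, bands and pairs are the 5 most extreme in each direction (tiles at most 1 a band, bands of at least 10 tiles). The comparison and lists were chosen with earlier results of these data known.

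In R 4.3.3, circlize 0.4.16 supplied the hg19 bands and GenomeInfoDb 1.38.1 the lengths of the chromosomes. Of 59788 genes in the GRCh38.p14 table, 59675 were placed in an hg19 band of the same name. All else was done in Python 3.11.15 (pandas 2.3.3, numpy 2.4.6, matplotlib 3.10.9, scipy 1.17.1). On inputs with known answers, 7 of 7 checks returned them. No hg19 sequence or annotation was used, so no sequence is shown.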

Additional observations from a re-analysis of the deposited data

How the results depend on the processing

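Depth, threshold and list size limit every count, and 1 library a state leaves the spread between cultures unknown. An alternative took equal numbers of the strongest intervals (23842 of each list, which is all of the parental one). There the rank correlation was 0.50, its difference from that of parental and DTP -0.049 (-0.026 with all intervals), the share of nearer tiles among those that differed 50.9% (43.9% without tiles uncovered in both persister lists and 43.65% for changes of at least 10 points, both chosen after seeing the data), 3702 tiles were 2-fold higher and 6501 lower, the median width ratio 0.93 and the share of trios with nearer width 45.4%. The log2 change in relative coverage then turned for zinc finger (0.006), HOX (0.24), interferon (-0.31) and EGFR pathway bands (0.022). The difference in rank correlation was below 0 under all 11 alternatives.

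The rank correlation was 0.50 with tiles of 50 kb, 0.72 with 500 kb, 0.45 over tiles covered in at least 1 list and 0.44 over those covered in all 3. The share of nearer tiles was 47.3% with tiles of 50 kb, 46.3% with 500 kb, 49.3% over tiles covered in all 3, 47.3% weighted by signal, 49.04% by coverage and 47.4% for changes of at least 10 points. Chosen after seeing the data, it was 48.9% without the outer 5 Mb and re-ranked, 49.4% without tiles uncovered in both persister lists and 38.6% over all tiles. The width ratio was 0.94 with overlap of at least 50% of both, 1.00 with intervals within 5 kb joined and 0.93 with summed widths. Trios with nearer width were 49.02% with overlap of at least 50%. No paired analysis was possible because each group has 1 library and the replicate number names no pairing.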
